A study of Mus musculus with 70 samples.

Results

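The hormones vasopressin (Avp) and oxytocin (Oxt) and their receptors were followed on the MPIP24k cDNA array in 7 brain regions of the mouse lines HAB and LAB, which were bred for strong and for weak anxiety. Members were the spots whose name on the array is the full name or the symbol of Avp, Oxt or a receptor of either peptide, the kidney receptor of vasopressin included. Of 6 genes looked for, 4 had such a spot, 1 each: Avp, Oxt, the vasopressin receptor 1A (Avpr1a) and the vasopressin receptor 2 (Avpr2). They are 4 of the 22824 probes that remain without control and empty spots. No spot was matched to Avpr1b or Oxtr by this rule. A spot named as an EST highly similar to the mouse oxytocin receptor was kept apart and is given by its values only.

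The mice were males of CD-1 (ICR) stock, 10 weeks old and untreated apart from behavioral testing. By the paper's account, animals of the lines went through the elevated plus-maze and the tail-suspension test before they were killed. Tissue was punched from frozen brain slices at 2 hypothalamic nuclei, the supraoptic (SON) and the paraventricular (PVN). Further punches came from the cingulate cortex (Cg), the nucleus accumbens (NAc) and the medial (MeA), central (CeA) and basolateral (BLA) parts of the amygdala. In each region the RNA of 6 HAB mice formed 1 pool and that of 6 LAB mice another. Each array took 1 pool per dye, and 10 arrays were made per region (70 in all), the HAB pool carrying Cy3 on 5 of them and Cy5 on the other 5. These arrays repeat the same RNA, so their spread and every test over them concern 1 HAB pool and 1 LAB pool and leave out the spread between mice.

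Vasopressin and oxytocin are nonapeptide hormones. Large neurosecretory cells of the PVN and SON make them, each from a precursor that also holds a carrier protein, a neurophysin, and send them to the posterior pituitary. From there they enter the blood, vasopressin to act on the kidney as the antidiuretic hormone and oxytocin to act on the mammary gland and uterus. Smaller cells of the PVN release vasopressin together with corticotropin-releasing hormone to drive the pituitary stress response. Both peptides also act inside the brain, on Avpr1a, Avpr1b and Oxtr, which couple to Gq proteins, while Avpr2 is the receptor of the kidney.

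Both genes lie on mouse chromosome 2 in assembly GRCm38.p6, Oxt at 130574519 to 130577054 and Avp at 130580620 to 130582588. They are transcribed toward each other, and 3566 bases separate them. The 250 bases before the start of each gene in the RefSeq promoter table are shown because the hormones, though neighbors, do not share a promoter. For Oxt this start lies inside the annotated gene span. Capitals mark the E-box CACGTG in Avp. In Oxt they mark TGACCT on either strand, a core of nuclear receptor binding sites. Both sequences are those of the reference assembly and not of the HAB or LAB line. By the paper's account of earlier work, LAB mice carry a single-nucleotide variant in Avp and a short deletion in its promoter region. Whether these fall in the window shown was not tested.
Avp, chr2:130582589-130582838, minus strand, 5′ to 3′: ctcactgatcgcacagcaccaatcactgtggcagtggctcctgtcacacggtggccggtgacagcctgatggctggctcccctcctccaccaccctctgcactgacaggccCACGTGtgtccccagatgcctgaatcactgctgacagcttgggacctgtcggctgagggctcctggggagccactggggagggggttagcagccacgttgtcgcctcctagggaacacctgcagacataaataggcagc
Oxt, chr2:130575919-130576168, plus strand, 5′ to 3′: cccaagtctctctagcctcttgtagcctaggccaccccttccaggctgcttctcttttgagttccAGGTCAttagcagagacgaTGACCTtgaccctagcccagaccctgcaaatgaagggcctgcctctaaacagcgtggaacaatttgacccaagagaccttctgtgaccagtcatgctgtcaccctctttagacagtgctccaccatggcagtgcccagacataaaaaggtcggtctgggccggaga

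The Avp window held 1 E-box, beginning 139 bases before the start, and no TGACCT. The Oxt window held TGACCT in 2 places, 185 and 166 bases before the start, and no E-box. Of 32851 such windows in the RefSeq table, 6.02% held CACGTG and 14% held TGACCT on either strand. Each window also held 1 match to ATAAA, 13 bases before the start in Avp and 26 in Oxt, which 37.3% of the windows share. TGACGTCA, the cAMP response element, was in neither window and in 1.55% of all.

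The scanner intensities of the arrays were background corrected, smoothed by loess and by print-tip block, and turned so that a positive log2 HAB/LAB means a stronger signal of the HAB pool. A channel was counted as above the empty spots when its intensity exceeded their median plus 2 median absolute deviations. These limits ran from 114.7 to 234.0 in the PVN, from 266.1 to 513.6 in the SON and up to 3329 in the CeA, on 1 array that was brighter than the rest. A count of channels above the empty spots therefore depends on the limits of the region as well as on the signal. The median log2 HAB/LAB of all probes lay within 0.01 of 0 in every region. The clone sequences of the spots were not used here. Since the Avp and Oxt precursors share a nearly identical neurophysin stretch, part of a spot's signal may come from the other transcript, and this was not tested.

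The Avp spot gave its strongest mean signal in the PVN and SON. On the scale normalized over all 70 arrays, where the level is the mean log2 intensity of both channels, it reached 9.42 ± 0.49 (SD, n = 10 arrays) in the SON and 9.19 ± 0.32 in the PVN. It stood at 8.20 ± 0.71 in the CeA, 7.99 ± 1.18 in the BLA, 7.95 ± 0.58 in the NAc, 7.38 ± 0.46 in the MeA and 7.10 ± 0.55 in the Cg. Neighbors in this order differed by less than the larger of their SDs, except the PVN and CeA, whose arrays still overlapped. The BLA array with HAB in Cy3, replicate 5, reached 10.5, above the highest array of the SON (10.0) and of the PVN (9.74). The SON exceeded the mean of the 5 regions outside the PVN and SON by 1.69 and the PVN by 1.47.

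Within an array, the Avp spot ranked at the percentile 74.7 of all probes in the SON and 67.2 in the PVN (medians). In the CeA it ranked at 38.9, in the NAc at 32.3, in the BLA at 16.6, in the MeA at 11.4 and in the Cg at 5.81. It was above the empty spots in 20 of 20 channels of the PVN and 15 of 20 of the SON. Elsewhere this held for 5 channels in the CeA, 5 in the NAc, 4 in the BLA, 2 in the MeA and 1 in the Cg, so that a level in these regions is hardly measured. In pooled tissue, fewer vasopressin cells and less vasopressin mRNA per cell cannot be told apart.

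**Figure D1:**
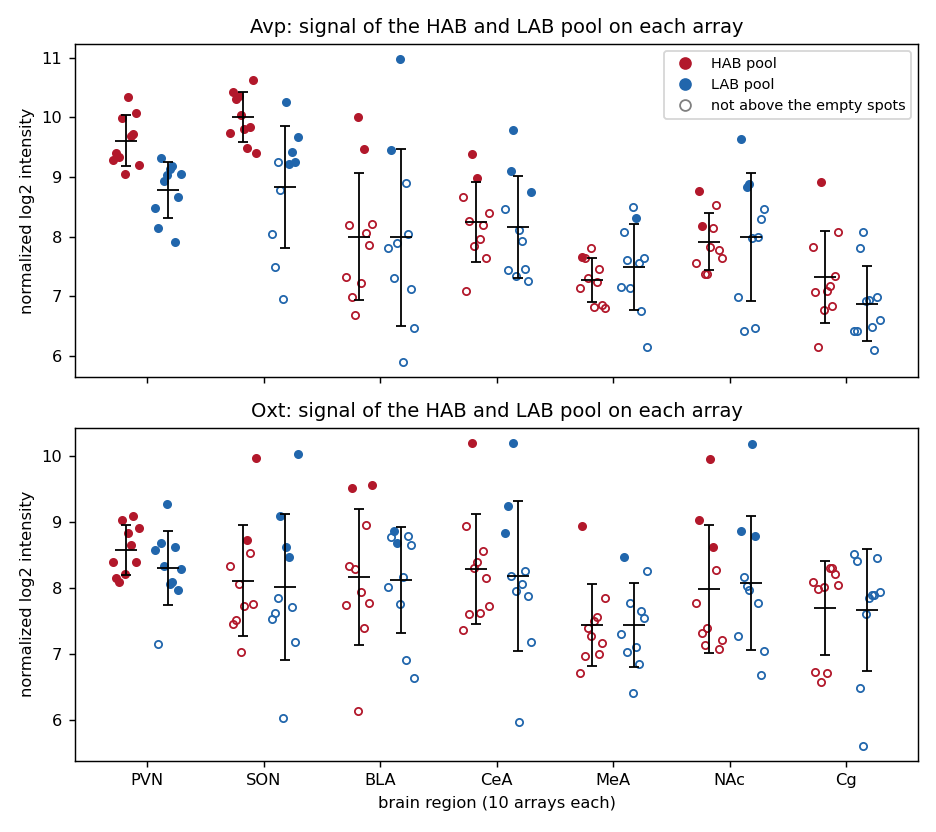
Signal of the Avp spot (top) and the Oxt spot (bottom) in each region, as log2 intensity normalized over all arrays. Each point is 1 array (HAB pool red, LAB pool blue, open where the channel was not above the empty spots), and bars give mean and SD of 10 arrays. The mean of Avp stands highest in the PVN and SON. Oxt is above the empty spots in nearly all channels of the PVN only, where the limits were lower than in the SON.

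In the PVN the normalized Avp signal favored HAB on every array, but the difference did not pass the test over all probes. On the 5 arrays with HAB in Cy3 the HAB channel read 848, 548, 786, 1551 and 686 intensity units, and the LAB channel 211.6, 159.0, 484.7, 368.8 and 339.8. On the 5 arrays with HAB in Cy5 the HAB channel read 916, 741, 578, 876 and 382, and the LAB channel 1085, 1314, 393, 1034 and 770.0. The Cy3 channel was thus the brighter one on 9 of the 10 arrays before normalization, whichever line it held.

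After normalization, log2 HAB/LAB of Avp in the PVN ran from 0.02 to 1.82. Its mean was 0.83 (SD 0.63, SE 0.183, n = 10, 95% interval 0.43 to 1.22), or 1.77-fold toward HAB, with an adjusted p of 0.104 (limma, Benjamini-Hochberg over 22824 probes). The arrays with HAB in Cy5 averaged 1.02 ± 0.68, and the opposite orientation averaged 0.64 ± 0.58. Of all probes, 0.443% were higher in HAB on all 10 arrays of the PVN. Ordered by mean log2 HAB/LAB from the highest, Avp was number 23 of 22824 probes.

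In the SON the Avp spot had a larger mean difference toward HAB, which came mainly from the arrays with HAB in Cy3. There the HAB channel read 791, 1543, 2891, 2098 and 1380 intensity units and the LAB channel 141.3, 105.1, 395.2, 334.8 and 76.1. With HAB in Cy5, the HAB channel read 445, 438, 462, 938 and 645, and the LAB channel 1035, 794, 898, 968 and 933. The LAB pool was above the empty spots on none of the 5 arrays that held it in Cy5 and on all 5 that held it in Cy3, while the HAB pool was above them on all 10.

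The log2 HAB/LAB of Avp in the SON ran from -0.46 to 3.07, with a mean of 1.17 (SD 1.22, SE 0.235, n = 10, 95% interval 0.67 to 1.67). Of the 10 arrays 8 were above 0, and the adjusted p was 0.0937 (limma). On 5 of them, those with HAB in Cy3, the LAB level was not measured above the empty spots, so the mean and its interval are no exact fold. The arrays with HAB in Cy3 gave 2.07 ± 0.89 (5 of 5 above 0) and those with HAB in Cy5 gave 0.27 ± 0.72 (3 of 5 above 0). The call in the SON depended on the processing: without the print-tip step the adjusted p was 0.024, with the array median alone 0.0224, and over the probes above the empty spots only 0.0303.

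**Figure D2:**
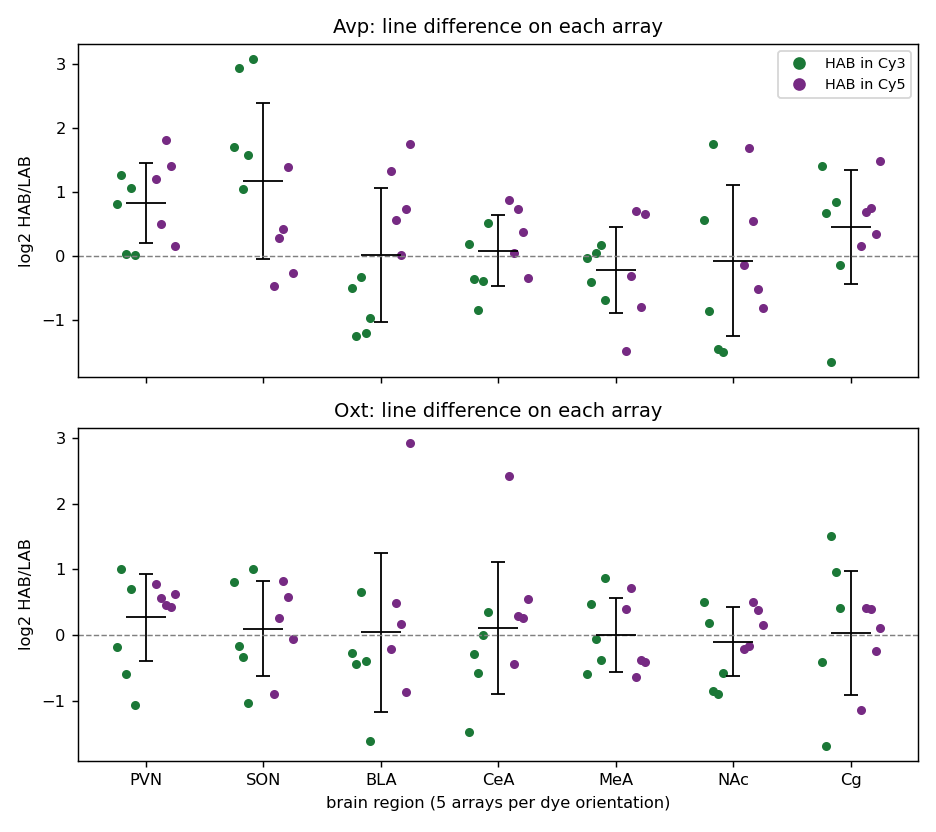
Log2 HAB/LAB of the Avp spot (top) and the Oxt spot (bottom) on each array of the 7 regions, where green marks HAB in Cy3 and purple HAB in Cy5. Bars give the mean and SD of the 10 arrays. All 10 PVN arrays lie above 0 for Avp, and the SON arrays with HAB in Cy3 lie above most of those with HAB in Cy5.

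Comparing the pools within 1 dye, between arrays, leaves the dye out of the difference. This comparison was chosen after the values had been seen. After scaling between arrays, the Cy3 and Cy5 differences average by construction to the mean log2 HAB/LAB of the region. They split that mean by dye and are no independent measurement. In the SON the Cy5 channels read 438 to 938 for HAB and 76.1 to 395 for LAB and did not overlap, which 0.635% of all probes did in this direction. The Cy3 channels read 791 to 2891 for HAB (median 1543) and 794 to 1035 for LAB (median 933), overlapping by 1 HAB array. All 5 LAB readings in Cy5 were below the empty-spot limits, so no size is given for the difference in that dye. In Cy3, where both pools were measured, HAB exceeded LAB by 0.61 (log2) after scaling between arrays.

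In the PVN the Cy5 channels read 382 to 916 for HAB (median 741) and 159.0 to 485 for LAB (median 340), with overlap. The Cy3 channels read 548 to 1551 for HAB (median 786) and 393 to 1314 for LAB (median 1034), so that the raw medians there were in the opposite order. After scaling between arrays, HAB exceeded LAB in both dyes, by 1.03 in Cy5 and by 0.63 in Cy3 (log2), which are the parts of the PVN mean.

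**Figure D3:**
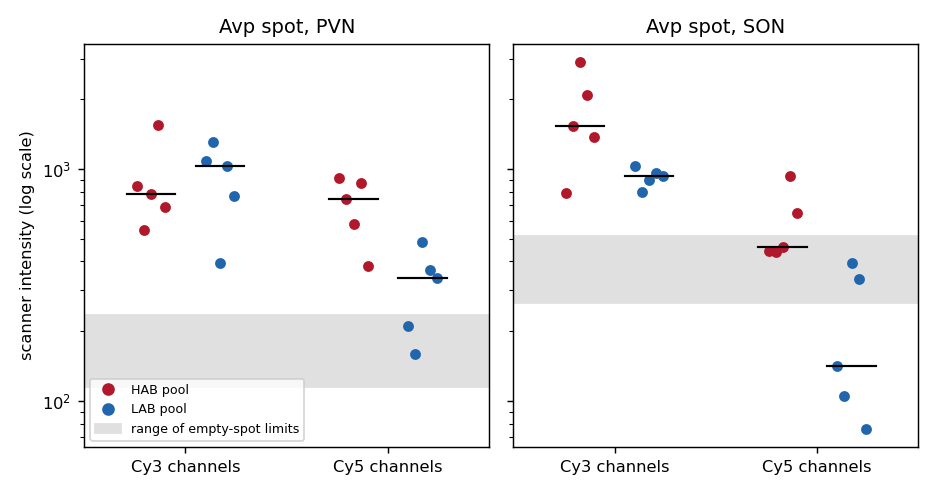
Scanner intensity of the Avp spot (log axis) in the PVN and SON, for the Cy3 and the Cy5 channels apart, with HAB channels red and LAB channels blue. Each point is 1 array, lines are medians of 5 arrays, and the gray band spans the empty-spot limits of the region's channels. In the SON the Cy5 channels of HAB (438 to 938) lie above all those of LAB (76.1 to 395).

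The other 5 regions gave Avp differences near 0 or with arrays on both sides. The mean log2 HAB/LAB was 0.45 ± 0.90 in the Cg (8 of 10 arrays above 0), 0.08 ± 0.56 in the CeA, 0.01 ± 1.05 in the BLA, -0.08 ± 1.18 in the NAc and -0.21 ± 0.67 in the MeA. In the BLA the dye orientations had opposite signs, with -0.85 ± 0.42 for HAB in Cy3 and 0.88 ± 0.68 for HAB in Cy5. Adjusted p-values in these regions were 0.543 to 0.994.

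Among the 4 member spots, 0 of 28 differences within a region passed at an adjusted p under 0.05, and 3 had an unadjusted p under 0.05 (limma): Avp in the PVN and SON, and Avpr2 in the Cg. Over the 7 regions 9.61% of all probe differences had an unadjusted p under 0.05, so a count of 3 is near the background. By the adjusted p, 0.386% of all probes passed in the PVN, 0.0789% in the SON, 0.101% in the BLA, 0.0701% in the CeA, 1.25% in the NAc, 0.114% in the MeA and 0.526% in the Cg.

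Averaged over the 7 regions, Avp stood at 0.32 (SE 0.123), positive in 5 of 7 regions, with an unadjusted p of 0.0152 and an adjusted p of 0.638 (limma over 7 region means). The PVN and SON together gave 1.00 and the other 5 regions 0.05. In those 5 regions the Avp spot was above the empty spots in only 1 to 5 of 20 channels, so the ratio there is hardly measured. None of the 4 spots passed over the regions, where 0.302% of all probes did. An unadjusted p under 0.05 was found for 1 of the 4 and for 6.33% of all probes. Because the same mice gave all regions, these p-values understate the uncertainty about the lines.

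The line difference of Avp was unequal between the regions (F = 4.38, adjusted p = 0.0207, limma over 70 arrays with a dye term for each region), a test that 6.09% of all probes passed. The call was lost without background correction (adjusted p = 0.0671) and under a replicate block (adjusted p = 0.0593). Outside the PVN and SON the Avp spot was above the empty spots in only 1 to 5 of 20 channels per region. What part this has in the F was not tested. The other 3 members did not pass, with adjusted p-values of 0.548 to 0.992. The difference in the PVN minus that in the SON was -0.34 (SE 0.348, adjusted p = 0.886) for Avp, and 0 of the 4 members passed this contrast, none with an unadjusted p under 0.05 either, against 0.241% of all probes.

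Oxytocin was measured above the empty spots in the PVN but hardly in the SON, where the limits were higher. The median intensity of the Oxt spot was 268.9 (HAB) and 371 (LAB) in the PVN, and 286.8 and 231.7 in the SON. It was above the empty spots in 19 of 20 channels of the PVN and in 6 of the SON, 6 of the NAc, 4 of the BLA, 4 of the CeA, 2 of the MeA and 0 of the Cg. Its level was 8.44 ± 0.34 in the PVN, 8.23 ± 0.86 in the CeA, 8.14 ± 0.70 in the BLA, 8.06 ± 0.91 in the SON, 8.03 ± 0.96 in the NAc, 7.68 ± 0.68 in the Cg and 7.43 ± 0.56 in the MeA. Neighbors in this order differed by less than their SDs. The PVN stood 0.54 and the SON 0.16 above the mean of the other 5 regions. The SON is known for its oxytocin cells, but the signal of this spot did not set the SON samples apart.

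In the PVN the HAB channel of the Oxt spot read from 190.1 over a median of 268.9 to 605 intensity units, and the LAB channel from 48.6 over 371 to 674. The arrays lay on both sides of 0, from -1.07 to 1.00, with 7 of 10 above. The mean log2 HAB/LAB was 0.27 (SD 0.67, SE 0.18, 95% interval -0.12 to 0.66, adjusted p = 0.662). All 5 arrays with HAB in Cy5 were above 0 (0.57 ± 0.14), while those with HAB in Cy3 averaged -0.03 ± 0.87. In the SON the mean was 0.10 ± 0.72 (95% interval -0.38 to 0.58, adjusted p = 0.956), with 5 of 10 arrays above 0.

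The remaining regions gave Oxt means between -0.10 (NAc) and 0.11 (CeA), with SDs of 0.53 to 1.21. Over the 7 regions the mean was 0.07 (SE 0.0787, adjusted p = 0.951). Single arrays stood far out where the signal was near the empty spots, at 2.93 in the BLA and 2.42 in the CeA, both with HAB in Cy5.

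Avp and Oxt come from neighboring cells of the same nuclei, so their differences were set side by side on each array. The log2 HAB/LAB of Avp minus that of Oxt averaged 0.56 ± 0.57 in the PVN (8 of 10 arrays above 0) and 1.07 ± 1.2 in the SON (8 of 10). On the SON arrays with HAB in Cy3 it was 2.01 ± 0.89, against 0.13 ± 0.49 in the opposite orientation. On the PVN arrays these values were 0.67 ± 0.37 and 0.45 ± 0.74. These are descriptions of the arrays, with no test. On the SON arrays with HAB in Cy3 the LAB channel of Avp was never above the empty spots. Oxt was above them in only 6 of 20 channels of the SON, so the differences there are no exact values.

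Avpr1a, the vasopressin receptor of forebrain and vessels, was found near the empty spots in most regions. It was above them in 16 of 20 channels of the PVN and 10 of the MeA, and in 1 (BLA) to 6 (SON) of the others. At like levels, 8.21 ± 0.29 in the PVN and 8.28 ± 0.34 in the NAc, it was above them in 16 and 5 channels. These counts therefore do not rank the regions by signal. Its level lay between 7.83 ± 0.63 in the Cg and 8.31 ± 0.29 in the MeA, a difference smaller than the SD in the Cg. The mean log2 HAB/LAB ran from -0.22 in the CeA to 0.16 in the PVN, with adjusted p-values of 0.727 to 0.995.

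Avpr2, the antidiuretic receptor of the kidney, was above the empty spots in 8 channels of the MeA, 5 of the CeA and 4 or fewer elsewhere. Its lowest mean was in the Cg, -0.63 (SD 1.03, adjusted p = 0.335), with 9 of 10 arrays below 0 and only 2 of 20 channels above the empty spots. The highest was 0.28 ± 0.73 in the SON. The EST similar to the oxytocin receptor was above the empty spots in 21 of 140 channels, with means from -0.27 ± 1.00 (SON) to 0.37 ± 0.67 (Cg), and none passed (adjusted p 0.527 to 0.931).

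**Figure D4:**
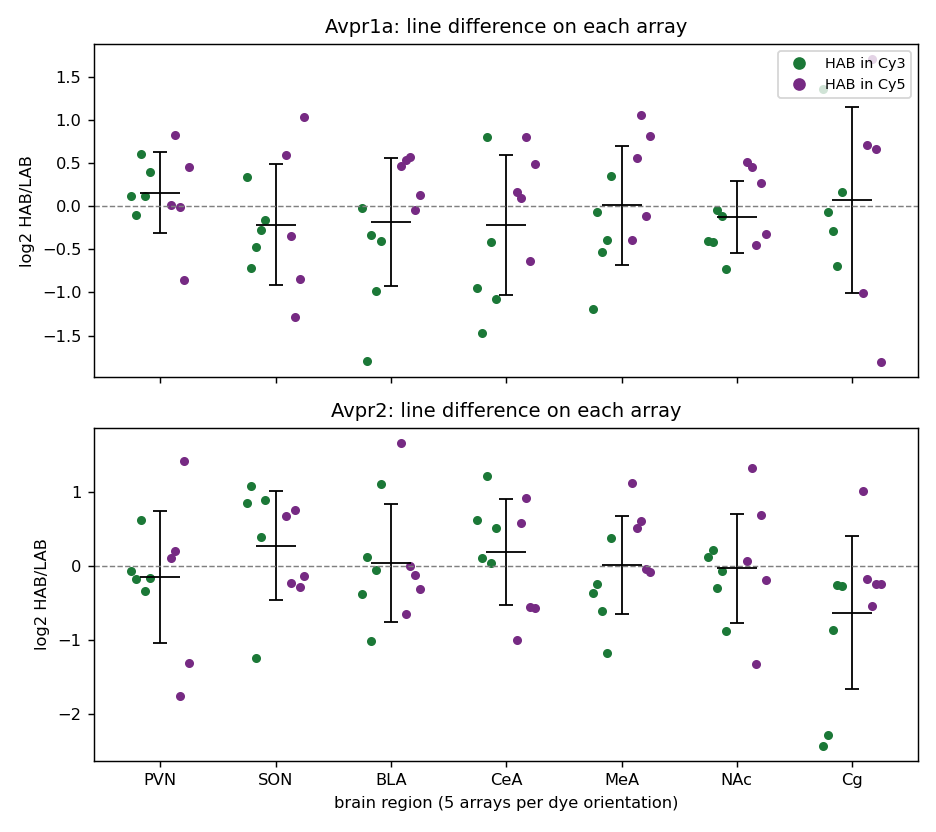
Log2 HAB/LAB of the Avpr1a spot (top) and the Avpr2 spot (bottom) on each array, where green marks HAB in Cy3 and purple HAB in Cy5, with mean and SD of 10 arrays as bars. Arrays lie on both sides of 0 in every region, and the lowest mean is that of Avpr2 in the Cg at -0.63.

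The genes that work with the hormones were taken as 5 lists: precursor processing and secretory granules, hypothalamic peptides, transcription factors and mRNA regulators, Gq signalling, and osmosensing and water balance. Of their 96 genes, 62 were matched to a spot. None of the 62 passed in the PVN or SON at an adjusted p under 0.05 (limma), and 9 in each had an unadjusted p under 0.05, where 10.5% of all probes in the PVN and 7.29% in the SON did. The median log2 HAB/LAB of the 62 genes was -0.03 in the PVN and 0.00 in the SON, and that of all probes lay within 0.01 of 0 in both. In the other regions 1 of them passed: secretogranin II (Scg2), a granule protein, in the NAc (-0.65, SD 0.35, 0 of 10 arrays above 0, adjusted p = 0.0247). In the NAc 1.25% of all probes passed, so 1 of 62 is near the background. The other Scg2 probe is not given for that region.

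Precursor processing and granules had 13 matched genes of 18, with a median of -0.08 in the PVN and 0.00 in the SON. The smallest adjusted p in the PVN belonged to carboxypeptidase E (Cpe), which trims the peptides in the granules (-0.40, SD 0.13, 0 of 10 arrays above 0, adjusted p = 0.102), but its other 2 probes stood at 0.27 and 0.07. Prolyl endopeptidase (Prep), which cleaves small peptides, followed at -0.51 ± 0.73 and chromogranin B (Chgb), a granule matrix protein, at -0.18 ± 0.19. In the SON the smallest were Chgb (-0.70 ± 1.00, 1 of 20 channels above the empty spots), Ptprn, a granule membrane protein (-0.61 ± 0.89), and Pcsk1n, an inhibitor of a prohormone convertase (0.46 ± 0.36, with its other probe at -0.17).

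Hypothalamic peptides had 14 matched genes of 24, with medians of 0.00 in the PVN and -0.03 in the SON. Tachykinin 1 (Tac1), the precursor of substance P, was lowest in both, at -0.46 ± 0.30 in the PVN (1 of 10 arrays above 0, adjusted p = 0.102) and -0.79 ± 0.22 in the SON (0 of 10, adjusted p = 0.108). Corticotropin-releasing hormone (Crh), a partner of vasopressin in the stress response, stood at 0.48 ± 0.65 in the PVN, with only 2 of 20 channels above the empty spots. The appetite-related peptide Cartpt stood at -0.29 ± 0.35 in the PVN and 0.43 ± 0.89 in the SON, and Vip at 0.52 ± 0.68 in the SON.

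Transcription factors and mRNA regulators had 13 matched genes of 19 and medians of -0.03 in the PVN and -0.04 in the SON. Creb1, which binds the cAMP response element, stood at -0.32 ± 0.70 in the PVN, Orc4 at 0.22 ± 0.40 and Nfil3 at -0.28 ± 0.86. In the SON the smallest adjusted p-values were those of Rora (0.32 ± 0.37), the mineralocorticoid receptor Nr3c2 (-0.24 ± 0.64) and the clock output factor Dbp (0.22 ± 0.79), at 0.744 to 0.859.

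Gq signalling had 13 matched genes of 19, with medians of -0.03 in the PVN and 0.12 in the SON. Phospholipase C beta 3 (Plcb3), an effector of Gq, stood at -0.27 ± 0.28 in the PVN and -0.69 ± 0.42 in the SON (0 of 10 arrays above 0, adjusted p = 0.336). The calcium channel Itpr1 stood at -0.33 ± 0.31 and Rgs4, which ends G-protein signals, at -0.22 ± 0.24 in the PVN, where the other Rgs4 probe stood at 0.19. Grk5, a receptor kinase, stood at 0.38 ± 0.71 and protein kinase C beta (Prkcb) at 0.26 ± 0.72 in the SON, where the other 4 Prkcb probes ranged from -0.25 to 0.23. In the PVN these 4 probes, which do not stand for the gene here, were at -0.25, -0.86, -0.79 and 0.01.

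Osmosensing and water balance had 9 matched genes of 16, with medians of -0.03 in the PVN and -0.11 in the SON. Angiotensinogen (Agt) stood at -0.44 ± 0.52 in the PVN, and the vasopressin-regulated water channel Aqp2 (0.38 ± 0.69) and the cation channel Trpv2 (0.28 ± 0.68) were above the empty spots in only 1 and 4 of 20 channels there. In the SON, Nos1 stood at -0.47 ± 1.03, Trpv2 at -0.54 ± 1.06 and the salt transporter Slc12a1 at -0.37 ± 0.54.

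**Figure D5:**
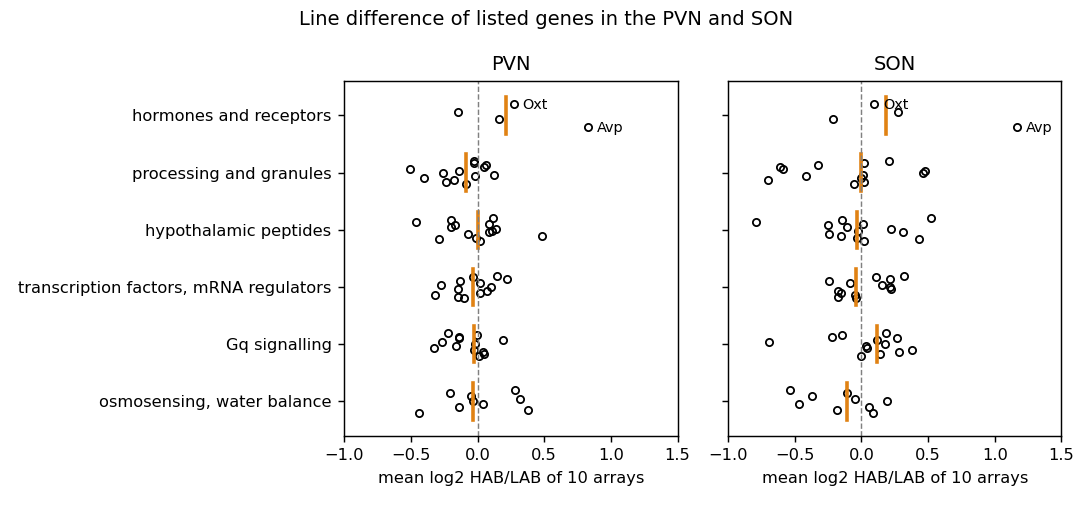
Mean log2 HAB/LAB of 10 arrays for each matched gene of the 5 lists and for the hormones and receptors, in the PVN (left) and SON (right). Open points did not pass at an adjusted p under 0.05, and orange bars are medians. No point passed, and Avp is the rightmost point of each panel (0.83 and 1.17).

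Markers of other tissue in the punches moved as follows. The beta-globin probe Hbb-b1, a marker of red blood cells, was above 0 in all 7 regions and rose toward HAB over them by 0.84 (adjusted p = 0.000338). It rose by 0.99 ± 0.27 in the PVN (adjusted p = 0.00128) and 1.88 ± 0.51 in the SON (adjusted p = 0.000173), on 10 of 10 arrays each, and by 0.83 ± 0.36 in the Cg (adjusted p = 0.0274). It stood at 0.74 ± 0.45 in the MeA, 0.59 ± 0.43 in the NAc, 0.50 ± 0.48 in the CeA and 0.34 ± 0.47 in the BLA, and did not pass in these 4. Its other 2 probes stood at 0.86 and 0.89 in the PVN and at 1.62 and 1.10 in the SON. It is 1 of 3 blood markers, and Hba-a1 stood at -0.32 and 0.44 and Alas2 at 0.07 and 0.25 in the PVN and SON. The summed level of the 3 ran from 11.5 to 11.9 for HAB and from 10.7 to 11.2 for LAB in the PVN, and from 11 to 13.6 and 10.3 to 11.5 in the SON. Its part in the Avp values was not tested.

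The 10 matched markers of hypothalamic peptide neurons, from a list of 14, had medians of 0.05 in the PVN and -0.08 in the SON, and none passed. Their summed level ran from 12.3 to 12.9 in the HAB and from 12.3 to 12.9 in the LAB pool of the PVN. In the SON it ran from 12 to 12.8 and from 11.9 to 12.8. The HAB sum was as high outside these nuclei, at 12.2 to 13.3 in the Cg and 12.2 to 13.0 in the NAc. It therefore does not show how much of a nucleus a punch held. Myelin basic protein (Mbp), an oligodendrocyte gene, stood at 0.73 ± 0.32 in the SON (10 of 10 arrays above 0, adjusted p = 0.206), while 5 other Mbp probes ranged from -0.37 to 0.49. None of the 8 oligodendrocyte, 6 astrocyte, 3 choroid plexus, 7 striatal and 4 excitatory forebrain markers measured passed in the PVN or SON. Among those that passed in other regions, Mobp and Cnp, both of myelin, fell in the NAc and Cg. They do not stand for the 8 oligodendrocyte genes, whose median was 0.10 in the NAc and -0.10 in the Cg, where 1 passed toward HAB. The astrocyte gene Gja1 rose in the NAc, and the choroid plexus genes Ttr and Enpp2 fell in the BLA.

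Of 18 other genes within 200000 bases of the Avp and Oxt pair, 6 were matched to a spot: Cpxm1, Pced1a, Vps16, Ptpra, Ddrgk1 and Itpa. Their log2 HAB/LAB ran from -0.43 (Ptpra) to 0.29 (Vps16) in the PVN and from -0.55 (Itpa) to 0.21 (Vps16) in the SON, and none passed (adjusted p 0.435 to 0.991). The nearest matched ones on either side, Ptpra before Oxt and Ddrgk1 beyond Avp, stood at -0.43 ± 0.72 and 0.04 ± 0.40 in the PVN.

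The probes whose level over the 70 arrays was most like that of Avp, among 9539 named probes with signal, were house-keeping protein 1 (Pearson r = 0.70), tripartite motif protein 8 (0.66), Musashi homolog 2 (0.64), a high mobility group nucleosomal protein (0.63) and a regulatory subunit of protein kinase A (0.62). For Oxt they were sulfatase 2 (0.67), laminin alpha 2 (0.67), nuclear factor I/X (0.65), CD97 antigen (0.65) and golgi SNAP receptor complex member 1 (0.64). House-keeping protein 1 was printed in the same block as Avp, and sulfatase 2 and golgi SNAP receptor complex member 1 in the same block as Oxt. By log2 HAB/LAB the likest to Avp were prohibitin (0.49), leiomodin 1 (0.47), melanoma antigen family L2 (0.46), GTP binding protein 2 (0.44) and nicolin 1 (0.44). None of these probes passed the line test in the PVN or SON, and the arrays they are compared over share regions, pools and dye orientation.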

How the data were processed

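Scanner intensities of 70 arrays, as the authors deposited them, are linear, not normalized values of every spot and its local background for each dye. RNA had been amplified before labeling. Dyes were assigned to channels from the scan headers (for 3 arrays from the image name) and lines from the labels. In R 4.3.3 with limma 3.58.1, intensities were corrected by normexp (offset 50), normalized by loess over 40% of spots with 1368 control and empty spots at weight 0, then by the median of 48 print-tip blocks. Levels were scaled between arrays (Aquantile). Each region was fitted over 10 arrays with a dye term, the 7 region means by an intercept, and differences between regions by an F-test over 70 arrays, taking Benjamini-Hochberg adjusted p-values under 0.05 as passed. Median absolute deviations of 1170 empty spots were scaled by 1.4826. For genes with several probes the brightest stands for the gene. The log2 ratios that the authors deposited served as an alternative. Their array medians were -0.007 to 0.011, and they correlated at 0.861 to 0.972 with log2 HAB/LAB here, from which their direction was taken, while how they were centered stays unknown. They gave a value for Oxt in the PVN and for no other member. Names were matched by hand, sequences and positions are from RefSeq, and the number of arrays limits the precision. The fits were tested on simulated data. Members and lists were chosen with earlier results of these data known. Named genes are the members, the 3 per list with the smallest adjusted p in the PVN and in the SON, the chromosomal neighbors and the 5 likest probes. Alternatives were other corrections, normalizations, single dye orientations, blocks by replicate number or scan day, fewer arrays or regions, and fewer probes. 1 marker result is not reported here.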

Additional observations from a re-analysis of the deposited data

Results flagged for a closer look

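The line difference of Avp was unequal between the 7 regions (F = 4.38, adjusted p = 0.0207, limma over 70 arrays), with 1.17 in the SON, 0.83 in the PVN and -0.21 to 0.45 in the other 5 regions. The call was lost with the replicate block (adjusted p = 0.0593) and without background correction (0.0671). In the other 5 regions Avp was above the empty spots in only 1 to 5 of 20 channels, and the part of this in the F was not tested.

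Of 56 sets of 10 arrays, a spot's level or log2 HAB/LAB in a region, 7 held 1 array far from the others by Dixon's criterion, where chance gives about 1 in 20. The log2 HAB/LAB of Avp in the Cg was -1.66 on the array with HAB in Cy3, replicate 3, while the others lay between -0.15 and 1.49. For Oxt it was 2.93 in the BLA (HAB in Cy5, replicate 5; others up to 0.66) and 2.42 in the CeA (HAB in Cy5, replicate 1; others up to 0.55). The level of Avp was 9.20 on 1 array of the NAc (HAB in Cy3, replicate 2; others up to 8.26) and 8.49 on 1 of the Cg (HAB in Cy3, replicate 4; others up to 7.34). On that Cg array the level of Oxt was 6.09, with the others from 7.23 up. The level of Avpr1a was 10.1 on 1 array of the SON (HAB in Cy3, replicate 3; others up to 8.62). None of these outlying values lay in the PVN, and none of the Avp values in the SON was among them.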

How the results depend on the processing

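The only call among the members was the F of Avp, which has no sign, so this call could not reverse. The direction of Avp in the PVN and SON was toward HAB under all alternatives run, of which those within 1 dye only split the main mean. In the PVN its adjusted p stayed above the threshold, at 0.0679 to 0.245 for other corrections, normalizations, the replicate block or fewer probes. Leaving out 1 array gave 0.73 to 0.93 in the PVN and 1.03 to 1.30 in the SON, never past the threshold. In the SON Avp passed at 1.23 (loess only, adjusted p = 0.024), 1.17 (array median only, 0.0224; probes above the empty spots only, 0.0303). Oxt passed nowhere. Within 1 dye, between arrays, Oxt in the SON stood at -0.73 (Cy3) and 0.92 (Cy5), and Avp over the PVN and SON alone averaged 1.00. The F of unequal Avp differences fell to 3.48 without background correction (adjusted p = 0.0671). Of 573 alternative values, 76 changed sign, all of results not past the threshold, since the 1 member result past it has no sign.

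With the replicate number as a block (replicate block), Avp's F was 4.19 (adjusted p = 0.0593). The numbers do not pair the arrays: same-numbered arrays correlated at -0.05 to 0.04 in 35 pairs, and an array was most like its own number in 8. The block changed no other call of a member, and took the probes passing in the PVN from 88 to 25. In the SON, 18 probes passed, 41 over the probes above the empty spots and 93 in the authors' table. Leaving out the HAB in Cy5 arrays of replicate 2 or 3 left 57 or 55 in the PVN. The authors' table was not run for members other than Oxt in the PVN, nor the mean over regions for probes above the empty spots, since the members had no value there. Scan days could be set as a block in the BLA, CeA and Cg alone. A spot near the empty spots has no reliable ratio, which limits Avp in the SON (LAB above on 5 of 10 arrays) and outside the PVN and SON, Oxt outside the PVN, and both receptors: at 3 median absolute deviations, Avpr1a was above them in 9 channels of the PVN (16 at 2) and Oxt in 3 of the SON (6 at 2).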

Other observations

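Other peptide probes were above the empty spots in some regions and not in others. Thyrotropin-releasing hormone (Trh), made by small PVN neurons, was above the empty spots in 20 of 20 channels of the PVN, 12 of the MeA, 9 of the SON and none of the other 4 regions, with a level of 10.2 in the PVN. The peptide PACAP (Adcyap1) was above them in 20 channels each of the PVN, MeA and Cg, 17 of the SON and at most 2 of the BLA, CeA and NAc. Vip was above them in 20 channels of the Cg and 9 or fewer elsewhere. None of the 3 passed the line test in any region.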
